A study of Mus musculus with 6 samples.

Results

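Complex I (NADH:ubiquinone oxidoreductase) is the entry point of electrons from NADH into the mitochondrial respiratory chain. It was followed here through the transcripts of its nuclear-encoded subunits and assembly factors in mouse hearts with and without estrogen-related receptor alpha (ERRα), the orphan nuclear receptor encoded by Esrra. Genes were taken by name: every gene whose symbol begins with Ndufa, Ndufb, Ndufc, Ndufs or Ndufv and a digit, or with Ndufaf or Ndufab, read from its brightest probe set by mean over the 6 arrays. The rule named 44 genes. Of these 43 passed the filter on dim probe sets and are among the 12946 genes tested in all. Ndufb4 did not pass, because its only probe set carrying that single name was dim. Ndufa11 and Ndufs6 were measured only by probe sets that carry several gene names and were left out by the rule. The 43 genes comprise 6 core subunits, 27 accessory subunits, 8 assembly factors and 2 genes, Ndufa4 and Ndufa4l2, that carry the family name but are placed outside complex I.

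The enzyme is an L-shaped particle. Its matrix arm takes electrons from NADH through flavin mononucleotide and a chain of iron-sulfur clusters to ubiquinone, and its membrane arm pumps protons. The core subunits carry out this chemistry and have counterparts in bacteria. They are encoded in part by the nucleus and in part by mitochondrial DNA. The accessory subunits surround and stabilise the core, and the Ndufaf proteins help to build the complex without remaining in it. Heart muscle is rich in complex I, and ERRα with its coactivator PGC-1α is known as a regulator of respiratory chain genes.

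RNA from 6 hearts was hybridised to Affymetrix arrays with a heart per array. The groups were 3 wild-type (WT) males and 3 males labelled KO for ERRα, all under basal conditions. Of these 5 were labelled C57BL/6J and 2 to 3 months old, and the labels of WT 1 give neither strain nor age. The labels name no tissue-restricted allele, and the making of the KO allele is not described in the sources used here. Whole hearts were used, so fewer cells of a type and less RNA per cell cannot be told apart.

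The median deposited signal was 16 in WT 1 and 12.4 to 13.7 on the other arrays. Results are therefore given on the deposited scale and, beside it, after quantile normalization, which gives all arrays the same distribution of signals. The Esrra signal was 368.1, 394.4 and 349.1 in WT hearts, 24 in KO 2 and 18 in KO 3, but 180.1 in the library labelled KO 1, which goes against its label (log2 difference -2.58, SE 0.283, limma adjusted p = 3.8e-09). The adjusted p for Esrra in limma was 0.024 with quantile normalization, and Esrra did not pass with robust empirical Bayes (0.307) or without WT 1 (0.07). Of 10 cardiomyocyte markers 0 passed the test, with log2 differences between -0.33 and 0.12, and their summed signal was 65138.8 to 72471.5 in WT and 61503.9 to 65629.6 in the libraries labelled KO. All 7 atrial markers were called higher in the libraries labelled KO (summed signal 2977 to 9701.1 in WT and 13901.3 to 16594.1 in KO). So were 4 of 5 adipocyte markers (3397.7 to 4104.9 in WT and 3784.4 to 5581.9 in KO) and 1 of 8 fibroblast markers (5852.4 to 7064.7 and 7794 to 9394.6), where 1.78% of all genes were higher. The adipocyte sum is mostly Fabp4, which was not called (log2 difference -0.06). Car3 gave 29.7, 42.8 and 67.8 in WT hearts against 235, 1331.5 and 1147.7 in KO 1 to 3. For all 8 fibroblast markers every library labelled KO lay above every WT heart, against 6.81% of all genes. None of the 7 atrial, 5 adipocyte and 8 fibroblast markers was at 0 in any heart, but a signal above 0 does not show that a tissue was present. Dim values may be background, and Cidec read 7.9 and 5.4 in WT 2 and WT 3 and Bmp10 5.7 in WT 2. The part of these other tissues in the values below was not tested.

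Most complex I transcripts had a slightly lower mean in the libraries labelled KO, but no single gene passed the test on the deposited scale. The log2 difference, KO minus WT on the scale log2(signal + 16), was below 0 for 40 of the 43 genes, against 55% of all genes tested. Its median was -0.16, against -0.03 over all genes. It ran from -0.42 for Ndufb1 to 0.18 for Ndufaf7. At an adjusted p under 0.05 (limma, two-sided, Benjamini-Hochberg over all genes) 0 of 43 were lower and 0 higher, where 1.18% of all genes were lower and 1.78% higher. At an unadjusted p under 0.05, 11 were lower and 0 higher, against 6.44% of all genes lower and 786 of 12946 genes higher. All 3 libraries labelled KO lay below all 3 WT hearts for 14 of the 43, against 9.41% of all genes, and with the library labelled KO 1 left out this was so for 28 of 43, against 16.5% of all genes. All 3 lay above WT for 0 of 43, against 6.81% of all genes.

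**Figure D1:**
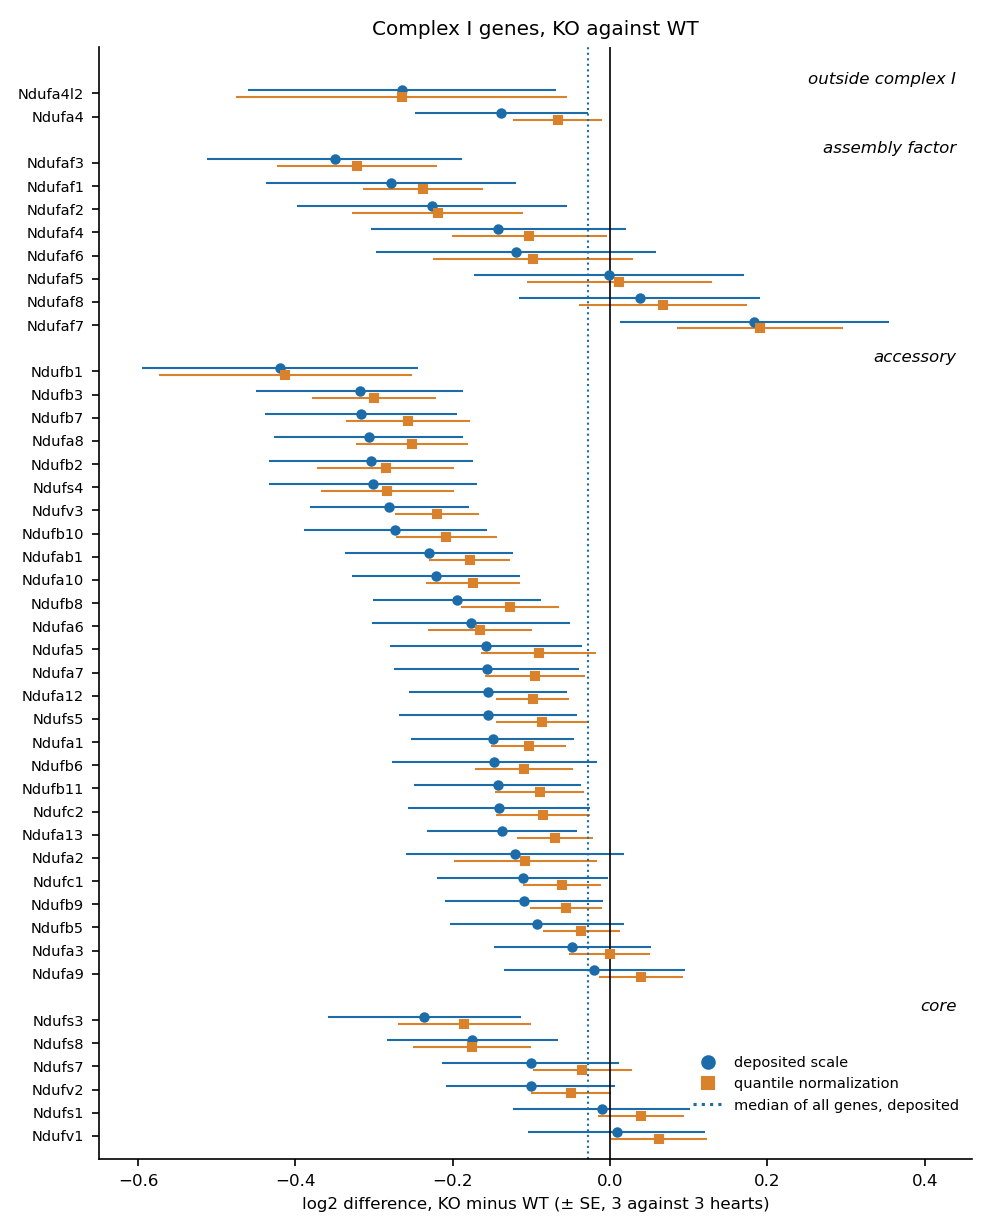
Log2 difference between libraries labelled KO and WT hearts for the 43 complex I genes, by class, with the standard error of the limma fit as bars (3 against 3 hearts); circles are the deposited scale and squares quantile normalization, and the dotted line is the median of all genes on the deposited scale. All 27 accessory subunits lie left of 0 on the deposited scale, while Ndufv1, Ndufaf7 and Ndufaf8 lie right of it.

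WT 1 stood above the other WT hearts. It was the brightest array of the 6 for 40 of the 43 genes, and for 51.1% of all genes tested. With quantile normalization the median of the 43 was -0.10 (all genes -0.01), 37 were below 0 against 52.5% of all genes, and the groups were separated downward for 16 of 43 against 12.5%. Ndufv3 then passed (adjusted p = 0.0499 in limma), the sole call, where 1.43% of all genes were lower and 2.01% higher. At an unadjusted p under 0.05, 14 were then lower, against 9.43% of all genes. These are bright transcripts. Of the 43, 37 were among the brightest 20% of genes, in which 63.3% of differences were below 0 on the deposited scale and 56.1% with quantile normalization, and groups were separated downward for 14.8% and 20.4%.

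Averaged over the 33 subunits and taken relative to the WT mean of each gene, the log2 signal was 0.16, -0.09 and -0.07 in WT 1 to 3 against -0.10, -0.23 and -0.20 in KO 1 to 3. All 3 libraries labelled KO lay below the WT hearts, but KO 1 differed little from WT 2. With quantile normalization the same means were 0.0065, -0.0013 and -0.0052 in WT hearts against -0.081, -0.13 and -0.18 in KO 1 to 3. On that scale the WT hearts lay close together, and KO 1 was the nearest of the libraries labelled KO to WT. KO 1 had an intermediate Esrra signal. It also had the lowest adipocyte sum of the libraries labelled KO (3784.4, against 5072.1 in KO 2 and 5581.9 in KO 3). A link of the complex I values with either was not tested.

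Promoter sequences were searched for elements bound by ERRα, NRF1 and the ETS factor GABP, known regulators of respiratory genes, because the members' values lay mostly on the same side of 0. RefSeq windows of GRCm38.p6, from 250 bases before to 50 after the start, were found for 38 of the 43 genes. The ERR element TCAAGGTCA, on either strand, was in 0 of 38 (0.466% of 27025 genes with such windows), and TNAAGGTCA, which contains it, in 0 of 38 (1.43%). Their shared core AAGGTCA was in 2 of 38, or 5.26%, against 5.38% of all genes. The palindromic NRF1 element was in 2 of 38 (1.07% of all genes), and the ETS core CCGGAAG, which GABP binds, in 6 of 38 (15.8%, against 9.93% of all genes). A match is a string of letters and not a bound site, and no match concerns this window alone.

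The stretches are shown for every one of the 43 genes with a match upstream of the start: Ndufb2 and Ndufs5 hold the ERR core, and the others an ETS core or NRF1 element. The matches of Ndufs8 (ETS core) and Ndufaf5 (NRF1 element) lie after the start and are not shown. The same holds for a further ETS core of Ndufs3, on the opposite strand. Each is written 5′ to 3′ on the strand of the gene, with the match in capitals.
Ndufb2 (chr6:39592369-39592405, plus strand, ERR core): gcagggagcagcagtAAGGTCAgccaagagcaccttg
Ndufs5 (chr4:123718393-123718429, minus strand, ERR core on the opposite strand): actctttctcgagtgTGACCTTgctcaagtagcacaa
Ndufb7 (chr8:83566723-83566757, plus strand, ETS core): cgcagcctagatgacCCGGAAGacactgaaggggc
Ndufaf1 (chr2:119662835-119662867, minus strand, ETS core): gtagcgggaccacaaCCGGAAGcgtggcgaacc
Ndufs3 (chr2:90904727-90904763, minus strand, ETS core): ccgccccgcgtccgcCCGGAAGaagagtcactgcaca
Ndufb6 (chr4:40279632-40279668, minus strand, ETS core on the opposite strand): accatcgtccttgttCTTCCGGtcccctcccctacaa
Ndufaf8 (chr11:120098911-120098933, plus strand, ETS core): ttcacgcgttcgactCCGGAAGa
Ndufaf4 (chr4:24897955-24897994, plus strand, NRF1 element): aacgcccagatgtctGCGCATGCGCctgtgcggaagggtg

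The 6 core subunits measured here belong to the matrix arm. Ndufv1, which binds NADH and flavin mononucleotide, gave 3611.8, 3410.5 and 3046.6 in WT hearts against 3493.2, 3113.4 and 3510.8 in KO 1 to 3. The groups overlapped fully, and the log2 difference was 0.01 (SE 0.113). Ndufs1, the largest subunit and the holder of several iron-sulfur clusters, gave 3327.1, 2956.9 and 3130 in WT hearts against 3211.3, 2967 and 3158.9 in KO (log2 difference -0.01, SE 0.112). Neither of these genes showed a difference beyond the spread between hearts.

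Ndufv2, the partner of Ndufv1 in the NADH-oxidising tip, was at -0.10 (SE 0.107), and so was Ndufs7 (SE 0.113), which holds the last iron-sulfur cluster before ubiquinone. Ndufs3, part of the ubiquinone-binding module, was lowest of the core. It gave 3214.9, 2579.1 and 2575.5 in WT hearts against 2697.9, 2274.2 and 2123.4 in KO 1 to 3. Only KO 1 reached into the WT range, and the difference was -0.24 (SE 0.123, limma adjusted p = 0.435). Ndufs8, which also carries iron-sulfur clusters, gave 4593.5, 3895.6 and 4070.6 in WT hearts against 3618.5, 3892.5 and 3586.8 in KO. Its groups were just separated, by KO 2 at 3892.5 against WT 2 at 3895.6, and the difference was -0.18 (SE 0.109, limma adjusted p = 0.563). Ndufs8 and Ndufv1 lie 3.00 and 2.90 Mb from Esrra on chromosome 19 (GRCm38), and their differences were -0.18 and 0.01.

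The accessory subunits held most of the lowest values. All 27 had differences below 0, with a median of -0.16, and the groups were separated downward for 11 of 27, against 9.41% of all genes and 14.8% of the brightest 20%. Accessory subunits outside the 27 did not all lie below 0. Their bright probe sets, which carry several gene names, were at 0.01 for Ndufa11, -0.04 and 0.02 for Ndufb4, and -0.16 for Ndufs6. A dim probe set of Ndufa11 was at -0.21. With quantile normalization 26 were below 0 (median -0.11) and 14 were separated, against 12.5% of all genes and 20.4% of the brightest. Over the core genes the medians were -0.10 and -0.04, with 1 of 6 and 0 of 6 separated, set against the same shares.

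Ndufv3, a small accessory subunit at the NADH-oxidising tip (chr17:31520115-31531326, GRCm38), had the smallest p of the 43. It gave 6469.5, 5757.4 and 5716.6 in WT hearts against 4921.3, 5091.7 and 4733.9 in KO 1 to 3. Every library labelled KO lay below every WT heart, KO 1 included. The KO mean was 82.2% of WT. In limma this was -0.28 on the log2 scale (SE 0.101, adjusted p = 0.142). With quantile normalization it was -0.22 (SE 0.0531, limma adjusted p = 0.0499), and without WT 1 on that scale -0.23 with an adjusted p of 0.161 in limma.

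Ndufb7, a membrane-arm subunit on the side of the intermembrane space, gave 3590.9, 2587.5 and 2909.6 in WT hearts against 2620.6, 2340.7 and 2270.8 in KO 1 to 3. KO 1 lay just above WT 2, and the other KO values lay below all WT hearts. The difference was -0.32 (SE 0.122, limma adjusted p = 0.19), or -0.26 with quantile normalization. Its other probe set read 2200.8, 1996.4 and 1929.2 in WT hearts against 1708.9, 1471.8 and 1527.9 in KO, with the groups separated and a difference of -0.38 (limma adjusted p = 0.392 over all probe sets).

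Ndufa8, another subunit of the membrane arm facing the intermembrane space, gave 3608, 2668.4 and 3070.3 in WT hearts against 2660, 2430.5 and 2406.1 in KO, with KO 1 just under WT 2. Ndufb3, in the outer part of the membrane arm, gave 2061.8, 1625.3 and 1722.8 in WT hearts against 1597.3, 1372.1 and 1349.3 in KO. Both sets were separated, with log2 differences of -0.31 (SE 0.120) and -0.32 (SE 0.131). Ndufb1, also of the membrane arm, had the largest difference of the 43, -0.42 (SE 0.175, limma adjusted p = 0.258). Its signals were 103.8, 123.4 and 108.8 in WT hearts against 87.9, 60.3 and 93.9 in KO. This was its only probe set, far dimmer than those of the other subunits, and its SE was the largest of the subunits. Ndufb10 was at -0.27 (SE 0.116). The groups of Ndufb1 were separated on the deposited scale but not with quantile normalization.

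**Figure D2:**
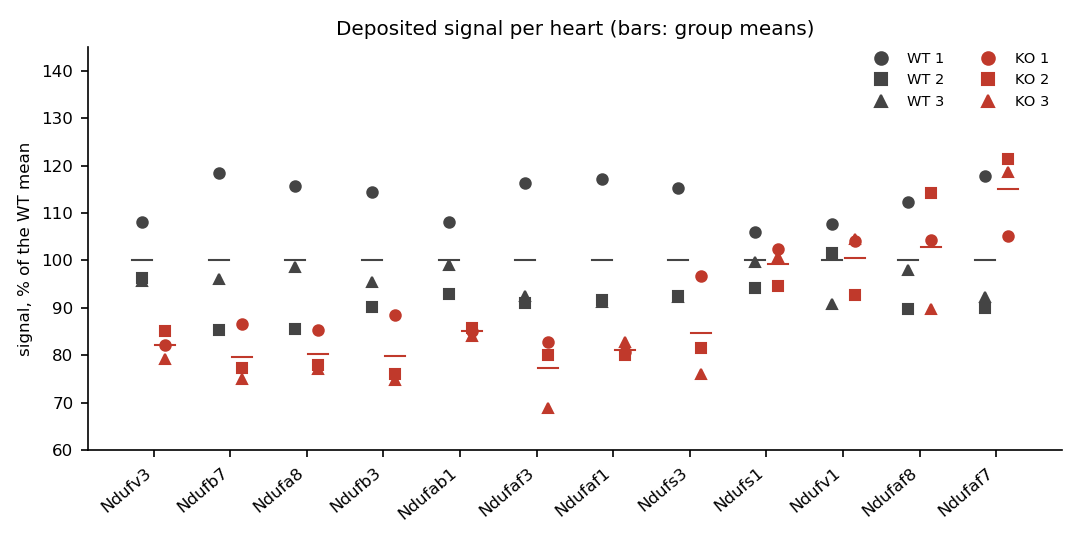
Deposited signal in each heart as a percentage of the WT mean of the same gene, for 12 genes named in the text; grey symbols are WT 1 to 3, red symbols the libraries labelled KO 1 to 3, and short bars the group means (n = 3 each). The groups are separated downward for Ndufv3, Ndufa8, Ndufb3, Ndufab1, Ndufaf3 and Ndufaf1, and overlap for Ndufs1, Ndufv1, Ndufaf8 and Ndufaf7.

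Ndufab1 is the mitochondrial acyl carrier protein, which sits in both arms of complex I and also serves lipoic acid synthesis and iron-sulfur assembly. It gave 4774.9, 4104.3 and 4375.7 in WT hearts against 3764.8, 3791.7 and 3715.4 in KO 1 to 3. The 3 KO values were close together and all below WT (log2 difference -0.23, SE 0.107, limma adjusted p = 0.342). Ndufs4, which stabilises the NADH-oxidising tip, was at -0.30 (SE 0.132), with all 3 kept probe sets between -0.46 and -0.29. At the other end Ndufa9, which binds NADPH near the ubiquinone site, was at -0.02 (SE 0.115), and Ndufa3, of the membrane arm, at -0.05 (SE 0.0998). With quantile normalization these last differences were 0.04 and -0.00054, so Ndufa9 turned sign.

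The 14 matrix-arm subunits had a median difference of -0.16 and the 18 membrane-arm subunits of -0.15. With quantile normalization these were -0.10 and -0.11. Groups were separated downward for 3 of 14 and 8 of 18, against 9.41% of all genes and 14.8% of the brightest 20%. With quantile normalization they were separated for 4 of 14 and 9 of 18, against 12.5% and 20.4%. Within each heart, the matrix-arm mean minus the membrane-arm mean was 0.045, -0.0084 and -0.036 in WT 1 to 3 against 0.067, 0.072 and 0.034 in KO 1 to 3, with WT 1 above KO 3. With quantile normalization it was 0.030, 0.0059 and -0.036 in WT hearts against 0.061, 0.060 and 0.039 in KO, all KO above all WT. The groups overlapped again when each gene was the mean of its kept probe sets (-0.050 to 0.044 in WT, -0.016 to 0.064 in KO). The difference between the arms was not tested.

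The difference between accessory and core subunits was also taken within each heart, where a common brightness of the array cancels. The accessory mean minus the core mean was 0.022, -0.015 and -0.0072 in WT 1 to 3 against -0.096, -0.10 and -0.069 in KO 1 to 3. All 3 KO values lay below the WT values, and this was also so with quantile normalization (-0.091, -0.072 and -0.0996 in KO against -0.048 to 0.042 in WT). With each gene taken as the mean of its kept probe sets the KO values were -0.075, -0.074 and -0.012 and the WT values -0.019 to 0.011, so the groups then overlapped. The reading of the core depended on the probe sets. Ndufv2 was at -0.10 by its brightest and at -0.24 and -0.39 by its other probe sets, and the core median moved to -0.17. The difference between the classes was not tested.

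The Ndufaf assembly factors went in both directions, with 6 of 8 below 0 and a median of -0.13. Ndufaf3, which acts early in assembly of the matrix arm, gave 429.3, 335.9 and 341.2 in WT hearts against 305.6, 295.1 and 254.2 in KO 1 to 3. The groups were separated, at a difference of -0.35 (SE 0.162, limma adjusted p = 0.34). Ndufaf1, needed for assembly of the membrane arm, gave 483.4, 378 and 376 in WT hearts against 333.3, 329.9 and 342 in KO. It was also separated (-0.28, SE 0.159, limma adjusted p = 0.501).

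Ndufaf2, a late-acting factor, was at -0.23 (SE 0.171) with KO 1 inside the WT range. Ndufaf4, the partner of Ndufaf3, was at -0.14 (SE 0.162) by its brightest probe set. Its other probe set gave 272.3, 208.2 and 221.3 in WT hearts against 193.4, 142 and 172 in KO, with the groups separated and a difference of -0.43 (limma adjusted p = 0.44 over all probe sets). Ndufaf6 was at -0.12 (SE 0.178) and Ndufaf5, which modifies Ndufs7, at -0.0011 (SE 0.172).

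Ndufaf7 and Ndufaf8 lay on the other side of 0. Ndufaf7, a mitochondrial methyltransferase, gave 120.6, 92 and 94.4 in WT hearts against 107.7, 124.3 and 121.4 in KO 1 to 3, a difference of 0.18 (SE 0.171). Ndufaf8, the partner of Ndufaf5, gave 610.9, 488.1 and 532.8 in WT hearts against 567.8, 621.1 and 488.4 in KO (0.04, SE 0.153). Both groups overlapped, and neither passed. Without WT 1 the median of the 8 factors was 0.014, against -0.06 without WT 1 under quantile normalization.

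Ndufa4, now counted with cytochrome c oxidase, was at -0.14 (SE 0.110). Ndufa4l2, its hypoxia-responsive paralog, gave 95.8, 90.1 and 40.3 in WT hearts against 62.8, 45.6 and 63.3 in KO (-0.26, SE 0.196). The WT hearts alone spanned a wider range than the KO libraries for that gene.

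In the promoter stretches shown above, the matches in Ndufb7, Ndufaf1, Ndufs3, Ndufaf8 and Ndufb6 begin 20, 18, 27, 8 and 232 bases before the start, and those in Ndufb2 and Ndufs5 begin 181 and 228 bases before it. Ndufb2 was at -0.30 (SE 0.129) with separated groups and Ndufs5 at -0.16 (SE 0.113) with overlapping groups. The 6 genes with the ETS core (Ndufb7, Ndufaf1, Ndufs3, Ndufs8, Ndufb6 and Ndufaf8) had a median difference of -0.21, against -0.16 for the 32 without it. They spanned -0.32 for Ndufb7 to 0.04 for Ndufaf8. With quantile normalization the medians with and without the ETS core were -0.18 and -0.10. The 2 genes with the NRF1 element had a median of -0.07 on the deposited scale, against -0.16 for the 36 without it. For the 2 genes with the ERR core it was -0.23, against -0.16 for the 36 without. None of these contrasts was tested.

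Of the 43 genes, 22 had more than 1 kept probe set. In 19 of them every probe set had a difference below 0. The exceptions were Ndufaf8 (0 of 2), Ndufv1 (1 of 3) and Ndufc2 (3 of 4, with its dim probe set at 0.34). In all, 78 of 84 kept probe sets were below 0, and 75 of 84 with quantile normalization. No gene's probe sets differed by more than 0.5 on the log2 scale. Of the 43 probe sets read, 9 have the suffix s or x, which marks probes that may also match transcripts of other genes. Probe sets with the suffix a were not counted.

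Other factors that build complex I had a median like that of the Ndufaf genes. Of 15 assembly factors with other names, 11 had differences below 0 and the median was -0.13. Of these 15, 0 passed, where 1.18% of all genes were lower and 1.78% higher. At an unadjusted p under 0.05 in limma 1 was lower and 0 higher, against 6.44% of all genes lower and 786 of 12946 genes higher. Timmdc1, a membrane-arm factor, was at -0.37 (SE 0.181) and Ecsit, a member of the same assembly complex as Ndufaf1, at -0.30 (SE 0.159). Ecsit gave 472.8, 387 and 396.6 in WT hearts against 373.7, 326.4 and 308.4 in KO, with the groups separated.

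Genes that make iron-sulfur clusters, the electron carriers of the matrix arm, had a lower median than complex I itself. Of 11 tested, 10 had differences below 0, with a median of -0.26 (-0.25 with quantile normalization), and 6 were separated downward, against 9.41% of all genes (8 with quantile normalization, against 12.5%). None passed on the deposited scale, where 1.18% of all genes were lower and 1.78% higher. At an unadjusted p under 0.05 in limma 2 were lower and 0 higher, against 6.44% of all genes lower and 786 of 12946 genes higher. With quantile normalization 1 passed, where 1.43% of all genes were lower. Isca2, a late-acting assembly protein for clusters of the larger kind, gave 554.6, 425.5 and 461.3 in WT hearts against 374.5, 358.1 and 374.6 in KO 1 to 3. All KO values lay below WT, and the difference was -0.36 (SE 0.157, limma adjusted p = 0.292), or -0.32 with quantile normalization (limma adjusted p = 0.0491).

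Nfu1, which hands clusters to target proteins, gave 550, 347.6 and 380.7 in WT hearts against 329, 289.9 and 326.5 in KO (-0.39, SE 0.166). Its partner Bola3 was at -0.26 (SE 0.130) and the glutaredoxin Glrx5 at -0.27 (SE 0.140), both with separated groups. Iscu, the scaffold on which clusters are built, lay the other way at 0.12 (SE 0.143), with overlapping groups. The median of this list was not compared with that of complex I by a test.

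The other complexes of the chain had medians nearer to 0 than the 43 complex I genes (-0.16, or -0.10 with quantile normalization). The complex I core, at -0.10 and -0.04, was close to complexes III and IV. These comparisons were not tested. The median was -0.05 for 4 genes of complex II, -0.09 for 9 of complex III, -0.10 for 11 of complex IV and -0.08 for 15 of ATP synthase. With quantile normalization these medians were 0.03, -0.03, -0.03 and -0.02, so that of complex II turned sign. In none of these lists did a gene pass (0 of 4, 0 of 9, 0 of 11 and 0 of 15), where 1.18% of all genes were lower and 1.78% higher. At an unadjusted p under 0.05 in limma, Cox7a1 was lower (-0.22, SE 0.109), where 6.44% of all genes were lower. At that threshold Cox7c, read from a probe set with signals of 22 or less, was higher (0.55, SE 0.225), where 786 of 12946 genes were higher. Sdha, the flavoprotein of complex II, was at -0.05 (SE 0.109), and Uqcrc1, a core protein of complex III, at -0.17 (SE 0.110). Atp5g1, a gene for the c ring of ATP synthase, was at -0.17 (SE 0.100).

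Of 6 genes for other routes to ubiquinone, 3 were below 0. Etfdh, which carries electrons from fatty acid oxidation to ubiquinone, gave 3216.1, 2848.1 and 2879.6 in WT hearts against 2552.5, 2228.1 and 2442.1 in KO 1 to 3, all below WT. The difference was -0.31 (SE 0.117, limma adjusted p = 0.18), and it passed with quantile normalization (-0.26, limma adjusted p = 0.0378). Etfb, a subunit of its electron donor, was at -0.21 (SE 0.121), and Etfa at 0.02.

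**Figure D3:**
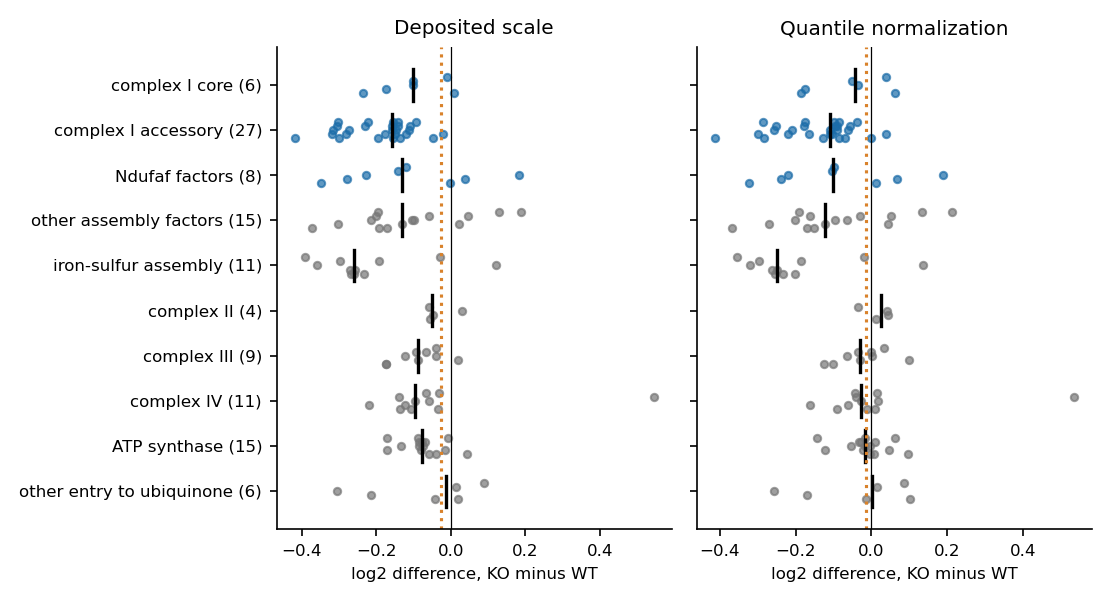
Log2 difference, KO minus WT, of each gene tested in complex I, in lists of genes that assemble it and its iron-sulfur clusters, and in the other respiratory complexes, on the deposited scale (left) and after quantile normalization (right); each point is a gene, black bars are list medians, and the dotted line is the median of all genes. The iron-sulfur genes have medians of -0.26 and -0.25, and complexes II to IV and ATP synthase lie around the dotted line on the right.

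Of the regulators known to act on these genes, Ppargc1a, which encodes PGC-1α, rose in the libraries labelled KO (log2 difference 1.04, SE 0.148, limma adjusted p = 2.34e-06), while the complex I genes it is known to coactivate lay slightly below 0. Nrf1 was at -0.17 (SE 0.189), Gabpa at -0.24 (SE 0.169), Yy1 at 0.17 (SE 0.168) and Tfam at -0.11 (SE 0.172). These are general activators of respiratory genes and of mitochondrial DNA, and none of these 4 passed. Esrrg and Esrrb, the related receptors, were at 0.11 (SE 0.169) and -0.18 (SE 0.178), and Ppargc1b at -0.20 (SE 0.153).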

How the data were processed

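Arrays of 6 hearts were used. Per the submitters' processing notes the authors ran MAS5, and the deposited numbers are its signal intensity, a linear value for each probe set. Scaling target and detection calls are not described here, so dim values may be background. Gene names came from the platform table. Control probe sets (62) were removed and log2(signal + 16) was taken with no further scaling; this pseudocount shrinks the differences of dim genes. Probe sets with a mean at or above the 40th percentile (a signal of 8.17) were kept, and the brightest stood for its gene. All 12946 genes were fitted with lmFit and eBayes (trend) of limma 3.58.1 in R 4.3.3, two-sided, at a threshold of 0.05 after Benjamini-Hochberg adjustment. The code was tested on simulated data. On the deposited scale the prior carried 45.6 degrees of freedom, so p-values of that fit depend little on a gene's own spread. With quantile normalization it carried 6.80, and 7.84 when KO 1 was also left out. A gene's own spread therefore weighs more in the p-values on that scale. Other probe sets were tested without the filter. Genes were named by rule: Ndufv3, Ndufb7, the core subunits, the Ndufaf factors, Ndufa4, Ndufa4l2, the 6 of smallest p, the 3 of largest and of smallest difference, the regulators, and up to 2 genes of smallest p in each pathway list; others were named after their values were seen. The members and lists were chosen with earlier results of these data known. Mitochondrially encoded subunits were not analysed here. Same-numbered hearts did not deviate together (correlations of deviations 0.027, -0.016 and 0.029), so the numbers were not taken as pairs. A comment in the array header of WT 1 numbers it 3, while its title, used here, says 1; under any numbering the correlations of a WT with a KO heart lie between -0.079 and 0.058. Alternatives were other pseudocounts, scalings, filters, variance models, array weights, rules for probe sets, a replicate block and leaving out each heart. The number of arrays limits the precision.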

Additional observations from a re-analysis of the deposited data

How the results depend on the processing

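The median difference of the 43 genes stayed below 0 in every alternative reported here, from -0.08 without WT 1 to -0.23 without WT 2, and 35 to 41 genes were below 0. With quantile normalization, only the omissions of WT 1 and of KO 1 are reported. By class the medians over the omissions of single hearts ran from -0.16 to -0.03 for the core and from -0.23 to -0.08 for the accessory subunits, while that of the assembly factors ran from -0.23 to 0.014, turning sign without WT 1. No complex I gene was called higher in any of the alternatives reported. Against 0 called lower on the deposited scale, 1 was called, Ndufv3, with quantile normalization, with median centring (adjusted p = 0.0285 in limma) and with the replicate block (adjusted p = 0.0432 in limma), whose numbers the labels do not say to pair and whose number for WT 1 differs between title and array header; under the block 237 genes were higher and 175 lower overall. Cyclic loess called 0 (limma adjusted p = 0.0697 for Ndufv3). With quantile normalization and without the library labelled KO 1, a combination chosen after seeing the data, 8 complex I genes were called lower (Ndufb10, Ndufb3, Ndufs4, Ndufb2, Ndufb7, Ndufs3, Ndufv3 and Ndufa8) among 481 genes lower and 514 higher; with quantile normalization and without WT 1 there were 0 among 16 and 37. Over all genes, 231 were higher and 153 lower. These counts were 48 and 18 with no filter and 114 and 57 with no intensity trend, 434 were higher with array weights, and omissions of single hearts gave 103 to 299 higher and 19 to 209 lower. The promoter count of 0 for the ERR element became 2 for its core AAGGTCA. Esrra did not pass with robust empirical Bayes (adjusted p = 0.307 in limma) or without WT 1 (0.07).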
